A study of Mus musculus with 6 samples.

Results

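The 6 genes described here encode lipoprotein lipase, proteins that hold it back, carry it or help it mature, and a related secreted protein of the liver. They are *Lpl*, *Angptl4*, *Angptl8*, *Angptl6*, *Gpihbp1* and *Lmf1*, listed by gene symbol from their known roles, with earlier results of these data known. They were taken from 35540 gene symbols in a table of liver RNA sequencing, and all 6 are among the 14189 genes that were abundant enough to be tested.

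Liver was compared between 3 mice of the genotype *Surf4 fl/fl Alb-Cre+* and 3 control littermates, *Surf4 fl/fl Alb-Cre-*, all on a C57BL/6J background and given free access to chow (5L0D). Both *Surf4* alleles of every mouse, controls included, carry loxP sites around exon 2. The Cre transgene is driven by the albumin promoter, which is active in hepatocytes. The paper proposes that the little *Surf4* mRNA with exon 2 left in *Alb-Cre+* livers likely comes from other liver cells. Replicates 1 and 3 of each genotype were male and replicate 2 was female. The study's methods describe an overnight fast before tissues were collected, and the age of these 6 mice is not given in the sources used here.

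Triglyceride-rich lipoproteins, the chylomicrons of the gut and the very low density lipoproteins of the liver, give up their fatty acids to tissues through lipoprotein lipase (LPL) on the wall of capillaries. LPL folds in the endoplasmic reticulum with the help of the membrane protein LMF1, and GPIHBP1 carries it across the endothelial cell and holds it at the capillary surface. ANGPTL4 and ANGPTL8 are secreted proteins that restrain it, the former best known from fasting and the latter from feeding. SURF4, the protein removed here, is a cargo receptor that moves secreted proteins out of the endoplasmic reticulum. The transcripts measured below say nothing about how much of any of these proteins was secreted.

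Levels are given in TPM, each transcript's part of all transcripts in a library scaled to a fixed total, a unit already corrected for transcript length, and summed over the transcripts of a gene. Between 10059 and 11125 genes reached 1 TPM in each mouse. TPM keep no record of read numbers, so the depth of the libraries is unknown. *Surf4* stood at 59.0, 71.8 and 54.3 TPM in the *Alb-Cre+* mice (replicates 1, 2 and 3) and at 92.5, 94.5 and 92.5 TPM in the *Alb-Cre-* mice. Each *Alb-Cre+* liver was below each control, by 0.60 on the log2 scale (SE 0.13, n = 3 per genotype). The paper describes *Surf4* mRNA lacking the loxP-flanked exon in *Alb-Cre+* livers, and a much deeper loss of the mRNA that keeps it. Summed TPM do not separate these forms, so the difference does not measure how much intact *Surf4* mRNA was lost. The hepatocyte markers *Alb*, *Ttr*, *Apoa1*, *Cps1* and *Serpinc1* summed to 73770, 70849 and 53305 TPM in the *Alb-Cre+* and 77324, 83036 and 71531 TPM in the *Alb-Cre-* mice. The sum was lower in the *Alb-Cre+* mouse of each pair. *Alb*, the largest of the 5, differed by -0.07 on the log2 scale (SE 0.34), *Ttr* by -0.37 (SE 0.18) and *Apoa1*, the main protein of high density lipoprotein, by -0.91 (SE 0.24, unadjusted p = 0.0065, adjusted p = 1.00, limma), the last 2 without overlap. *Cps1* differed by 0.19 (SE 0.19), higher in 2 of the pairs, and *Serpinc1* by -0.05 (SE 0.15), both with overlap.

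The libraries of both females stood apart from those of the 4 males. With genotype in the model, 10878 genes were higher and 3311 lower in females, with a median female minus male difference of 0.26 on the log2 scale. After rescaling by median of ratios that median was -0.01, with 6922 genes higher and 7225 lower. The summed TPM of 7 Kupffer cell markers was 459 to 498 in females and 126 to 195 in males, and that of 8 endothelial markers was 176 to 204 and 79.6 to 133. Sex and replicate number 2 cannot be told apart in this design. In bulk tissue, fewer cells of a type and less RNA per cell cannot be told apart either. Differences between genotypes are therefore also given within same-numbered pairs, and for the males alone. The labels do not say that same-numbered mice are littermates, and the pairing was taken from correlations in these same data.

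*Angptl4* was the most abundant of the 6 genes, with a mean of 128 TPM over all mice (SD 32.3, n = 6), above 94.3% of the genes tested. *Angptl8* followed at 51.2 TPM (SD 28.8) and *Gpihbp1* at 48.8 TPM (SD 12.1). These neighbours did not differ beyond their spread, *Angptl8* being the higher of them in 3 of 6 mice. *Lmf1* had 17.1 TPM (SD 2.14), *Lpl* 10.5 TPM (SD 4.41) and *Angptl6* 7.41 TPM (SD 1.80). In these last neighbouring pairs the order held in 4 of 6 mice each time, whereas *Angptl4* was above *Angptl8*, and *Gpihbp1* above *Lmf1*, in all 6. *Angptl8* varied most between mice, its highest value being 4.76 times its lowest, and *Lmf1* least, at 1.39 times.

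**Figure D1:**
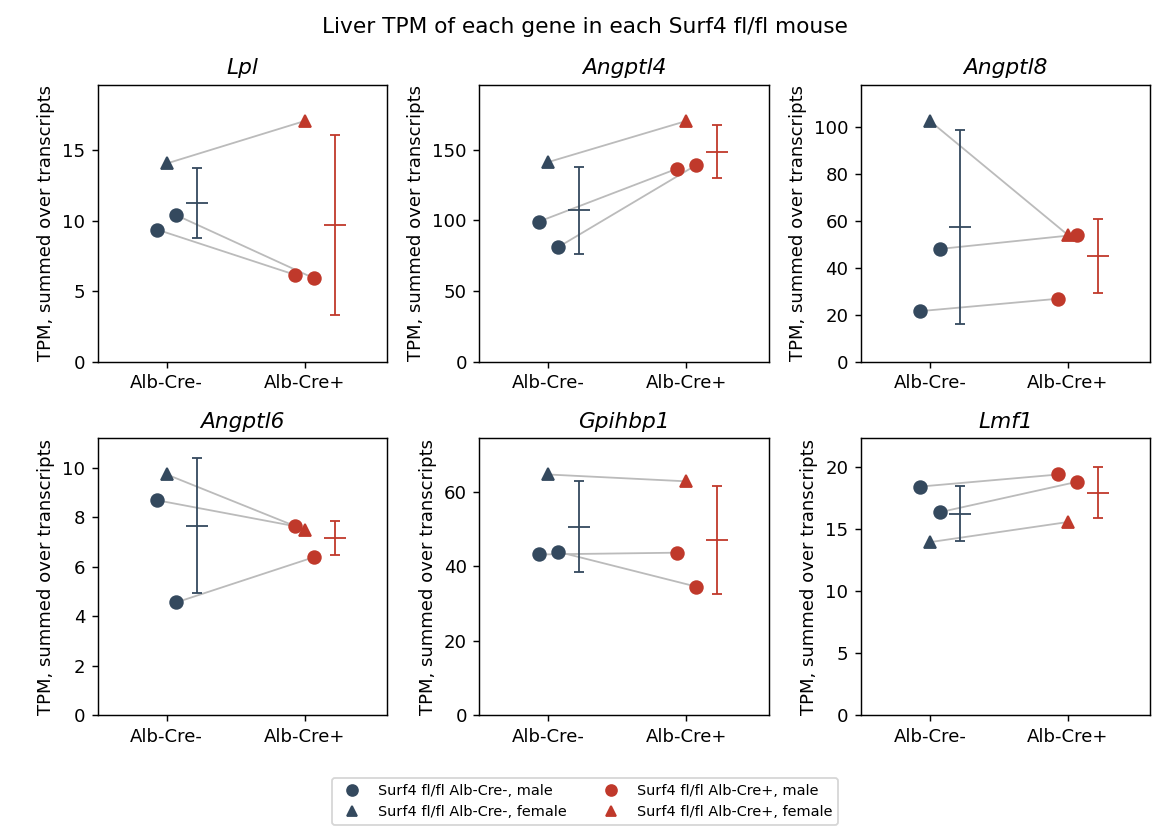
Liver TPM of each gene (vertical axes from 0, a scale of its own in each panel) in the 3 Alb-Cre- and 3 Alb-Cre+ mice, circles for males and triangles for females, with grey lines joining mice of the same replicate number and bars for the mean and SD of each genotype. Both females lie above all 4 males for Lpl, Angptl4 and Gpihbp1 and below them for Lmf1, and Angptl4 is higher in the Alb-Cre+ mouse of each pair.

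None of the 6 genes passed the adjusted p of 0.01 between genotypes. Neither did any other gene, 0% of the 14189 tested with limma on log2(TPM + 0.1). That includes *Surf4*, the targeted gene, which ranked 22 by p (unadjusted p = 0.0027, limma). The study's own count test reported genes in both directions past a false discovery rate of 0.01. The 0% therefore does not show that no transcript differed. At an unadjusted p under 0.05 limma called none of the 6, against 250 genes in all (1.76%). Adding the replicate number as a block gave *Angptl4*, with 666 of 14189 genes in all. *Angptl4* was also called with sex as a covariate (531 of 14189) and with median of ratios (324 of 14147, or 775 with the block). Leaving out the control female gave it too (290 of 14106). Males alone gave *Angptl4* and *Lpl* (522 of 13847), and leaving out the *Alb-Cre+* female gave *Lpl* (506 of 14025). No member had genotypes that did not overlap, a pattern shown by 4.9% of all genes. The adjusted p of each of the 6 was 1.00 in the fit of genotype alone (limma, Benjamini-Hochberg). The values of each gene follow, in the order of its role.

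**Figure D2:**
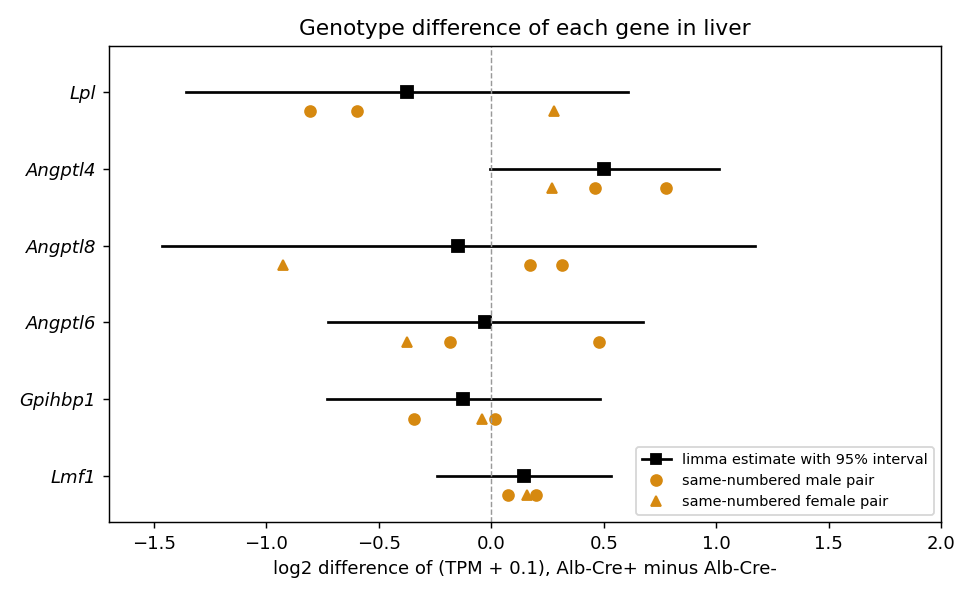
Difference between genotypes on the log2(TPM + 0.1) scale, Alb-Cre+ minus Alb-Cre- (horizontal axis), for each gene, with black squares and lines for the limma estimate and its 95% interval and orange symbols for the 3 same-numbered pairs. Each interval includes 0, and the female pair (triangles) lies on the other side of 0 from both male pairs for Lpl and Angptl8.

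*Lpl* lies on the forward strand at chr8:68880491-68907448 (GRCm38). It encodes the lipase itself, of which adult hepatocytes make little. Its level was 6.17, 17.1 and 5.91 TPM in the *Alb-Cre+* mice and 9.37, 14.1 and 10.4 TPM in the *Alb-Cre-* mice. Both *Alb-Cre+* males were below every control, and the *Alb-Cre+* female was the highest mouse of all. The genotype means were 9.72 ± 6.38 and 11.3 ± 2.47 TPM (SD, n = 3 each), a log2 difference of -0.37 (SE 0.42, 95% interval -1.36 to 0.61). In the male pairs the difference was -0.60 and -0.80, and in the female pair it was 0.28. A fit of the males alone, added after the data were seen, gave -0.70 with an unadjusted p of 0.0057 and an adjusted p of 0.999 (limma, n = 2 per genotype).

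Markers of other cells of the liver were set beside these values. In the *Alb-Cre+* males, with the lower *Lpl*, the 8 endothelial markers summed to 121 and 79.6 TPM and the 7 Kupffer cell markers to 195 and 126 TPM. In the control males the sums were 133 and 111 TPM for endothelium, and 192 and 171 TPM for Kupffer cells. The part of these cells in the *Lpl* difference was not tested. Markers of fat and muscle, the tissues best known for *Lpl*, were near 0. The 6 adipocyte markers together reached 0.283 to 1.17 TPM, with *Lep* at 0 in every mouse and 3 of 6 at a mean of 0.1 TPM or more, and the 4 skeletal muscle markers 0.034 to 1.00 TPM.

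*Angptl4* lies on the reverse strand at chr17:33773750-33781830 and encodes the inhibitor of LPL that fasting raises. It was measured at 137, 170 and 139 TPM in the *Alb-Cre+* mice and at 99.2, 141 and 81.1 TPM in the *Alb-Cre-* mice. The *Alb-Cre+* mouse was the higher of each pair, but the control female was slightly above both *Alb-Cre+* males, so the genotypes overlapped. The means were 149 ± 18.9 and 107 ± 30.97 TPM (SD, n = 3 each). On the log2 scale the difference was 0.50 (SE 0.22, 95% interval -0.01 to 1.01, limma unadjusted p = 0.0522). It ranked 261 of 14189 genes by p.

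Within pairs *Angptl4* differed by 0.46, 0.27 and 0.78, the second value being that of the females. *Angptl4* and *Lmf1* were the members higher in the *Alb-Cre+* mouse of all 3 pairs, as were 11.5% of all genes. Adding the replicate block lowered the SE to 0.12 and the unadjusted p to 0.0085, with an adjusted p of 0.738 (limma). In males alone the difference was 0.62, at an unadjusted p of 0.0072 and an adjusted p of 0.999 (limma). The *Angptl4* difference between genotypes thus had the same sign in every pair and did not pass the threshold in any of these fits.

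Most of the *Angptl4* signal was assigned to a transcript that does not encode the full protein. Angptl4-202, annotated in GENCODE M21 as a target of nonsense-mediated decay, took 67.8% to 71.0% of the TPM of *Angptl4* in each mouse. Angptl4-201, which encodes all 410 amino acids, took 23.6% to 26.6%. The transcripts differ where exon 2 joins exon 3, at which Angptl4-202 starts exon 3 later by 4 bases (114 bases in place of 118). The sequences across that junction, read on the reverse strand between chr17:33780620-33780794, show what the change does to the reading frame. Capitals mark the 4 bases that Angptl4-202 lacks in the upper sequence and its stop codon in the lower.
Angptl4-201: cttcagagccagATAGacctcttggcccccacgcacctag
Angptl4-202: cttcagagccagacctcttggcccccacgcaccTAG

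With these 4 bases gone the reading frame shifts, and Angptl4-202 ends after 154 codons. Few short reads can be particular to Angptl4-202, since 98.5% of its 31-base stretches also occur in Angptl4-201 and only 27 do not. In the other direction 55.1% of the stretches of Angptl4-201 occur in Angptl4-202, so more of its sequence is its own. Angptl4-201 is drawn 287 bases longer at its 5′ end and 1158 bases longer at its 3′ end, 3308 bases against 1859. RefSeq places the gene at 33774900 to 33781575 (GRCm38.p6), close to the ends of Angptl4-202, which are 33774908 and 33781543. The share of Angptl4-202 was 69.4% ± 1.47 in *Alb-Cre+* and 69.5% ± 1.38 in *Alb-Cre-* mice (SD, n = 3 each, exact permutation p = 1). The level of Angptl4-201 alone was 36.3, 40.2 and 33.9 TPM in *Alb-Cre+* and 26.3, 35.1 and 20.4 TPM in *Alb-Cre-* mice, which repeats the order of the summed values within each pair.

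*Angptl8* lies on the forward strand at chr9:21835510-21837347, inside *Dock6*, which is read from the other strand. Its product blocks LPL together with another member of the family and is known to follow insulin and feeding. It reached 26.8, 54.0 and 54.1 TPM in the *Alb-Cre+* mice and 21.5, 102.5 and 48.0 TPM in the *Alb-Cre-* mice. The control female was well above every other mouse, and replicate 1 was the lowest of both genotypes. The means were 45.0 ± 15.7 and 57.3 ± 41.3 TPM (SD, n = 3 each), a log2 difference of -0.15 (SE 0.56, 95% interval -1.46 to 1.17). The pairs gave 0.32, -0.92 and 0.17, and the males alone 0.24. *Angptl8* has 1 transcript in the table, of 198 codons. Whether the libraries were stranded is not given in the sources used here. *Dock6* itself was at 0.868 to 3.11 TPM.

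*Angptl6* lies on the same chromosome, 955782 bases away from *Angptl8*, on the reverse strand at chr9:20873808-20879727, and overlaps *A230050P20Rik* on the other strand. It encodes a circulating protein of the liver linked to energy balance. Its level was 7.64, 7.49 and 6.39 TPM in *Alb-Cre+* and 8.69, 9.73 and 4.56 TPM in *Alb-Cre-* mice. All *Alb-Cre+* values fell inside the range of the controls. The log2 difference was -0.03 (SE 0.30, 95% interval -0.73 to 0.67), with -0.18, -0.37 and 0.48 in the 3 pairs.

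*Gpihbp1* lies on the forward strand at chr15:75596628-75599481 and encodes the endothelial carrier of LPL. It stood at 43.6, 62.8 and 34.6 TPM in *Alb-Cre+* and at 43.2, 64.7 and 43.9 TPM in *Alb-Cre-* mice. The females were alike and the highest of each genotype, and the *Alb-Cre+* male of replicate 3 was the lowest mouse. The means were 47.0 ± 14.4 and 50.6 ± 12.2 TPM (SD, n = 3 each). The log2 difference was -0.12 (SE 0.26, 95% interval -0.73 to 0.48), and the pairs gave 0.02, -0.04 and -0.34. That *Alb-Cre+* male also had the lowest sum of the 8 endothelial markers, 79.6 TPM against 111 TPM or more in the other mice. The single markers did not all run that way. Within the pair of replicate 3 the log2 difference was -1.42 for *Lyve1*, -0.97 for *Emcn*, -0.39 for *Pecam1* and -0.31 for *Cdh5*. It was -0.27 for *Ptprb* and -0.23 for *Clec4g*, but 0.57 for *Stab2* and 0.41 for *Kdr*. The part of endothelial content was not tested.

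The protein of *Gpihbp1* depends on which last exon is joined to exon 3. Gpihbp1-201, of 228 codons, took 78.0% to 87.1% of the TPM of the gene, Gpihbp1-204, of 123 codons, 8.88% to 17.7%, and Gpihbp1-203, of 111 codons, 2.31% to 2.90%. From position 75597621 on chromosome 15, just before the end of exon 3, they read as follows on the forward strand, and capitals mark the start of each last exon.
Gpihbp1-201: gcggaaccgACAAAGGTTACCTGACTACCT
Gpihbp1-204: gcggaaccgCTTCTTCACTTGTCTGTGGGC
Gpihbp1-203: gcggaaccgGACGCCCTGGCCTCTCCTTCC

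The main form, Gpihbp1-201, made up 82.5% ± 4.03 of the TPM in *Alb-Cre+* and 83.4% ± 4.11 in *Alb-Cre-* mice (SD, n = 3 each). The exact permutation test gave p = 0.7 for this share.

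*Lmf1* lies on the forward strand at chr17:25579085-25662826 and encodes the protein of the endoplasmic reticulum that LPL needs to fold. Its level was 19.4, 15.6 and 18.8 TPM in *Alb-Cre+* and 18.4, 14.0 and 16.4 TPM in *Alb-Cre-* mice. The *Alb-Cre+* mouse was the higher of each pair, by 0.07, 0.16 and 0.20 on the log2 scale, and the females were the lowest of each genotype. The means were 17.9 ± 2.07 and 16.3 ± 2.24 TPM (SD, n = 3 each), a log2 difference of 0.14 (SE 0.16, 95% interval -0.24 to 0.53). Lmf1-202, which encodes 574 amino acids, took 95.4% to 99.1% of its TPM.

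Across the transcripts of the genes with more than 1, 23 shares were compared between genotypes with two-sided exact permutation tests. With 3 mice against 3 the smallest p such a test can give is 0.1, and 2 shares reached it, each with an adjusted p of 0.767. For Lpl-203, an *Lpl* transcript with the same 474 codons as the main form and an added exon after them, the share was 4.55%, 7.02% and 2.07% in *Alb-Cre+* and 18.6%, 8.28% and 7.13% in *Alb-Cre-* mice. For Lmf1-202 it was 96.0% ± 0.778 in *Alb-Cre+* and 97.8% ± 1.17 in *Alb-Cre-* mice (SD, n = 3 each). The level of Lpl-203 was 0.122 to 1.74 TPM over the 6 mice, so its share rested on a low signal.

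**Figure D3:**
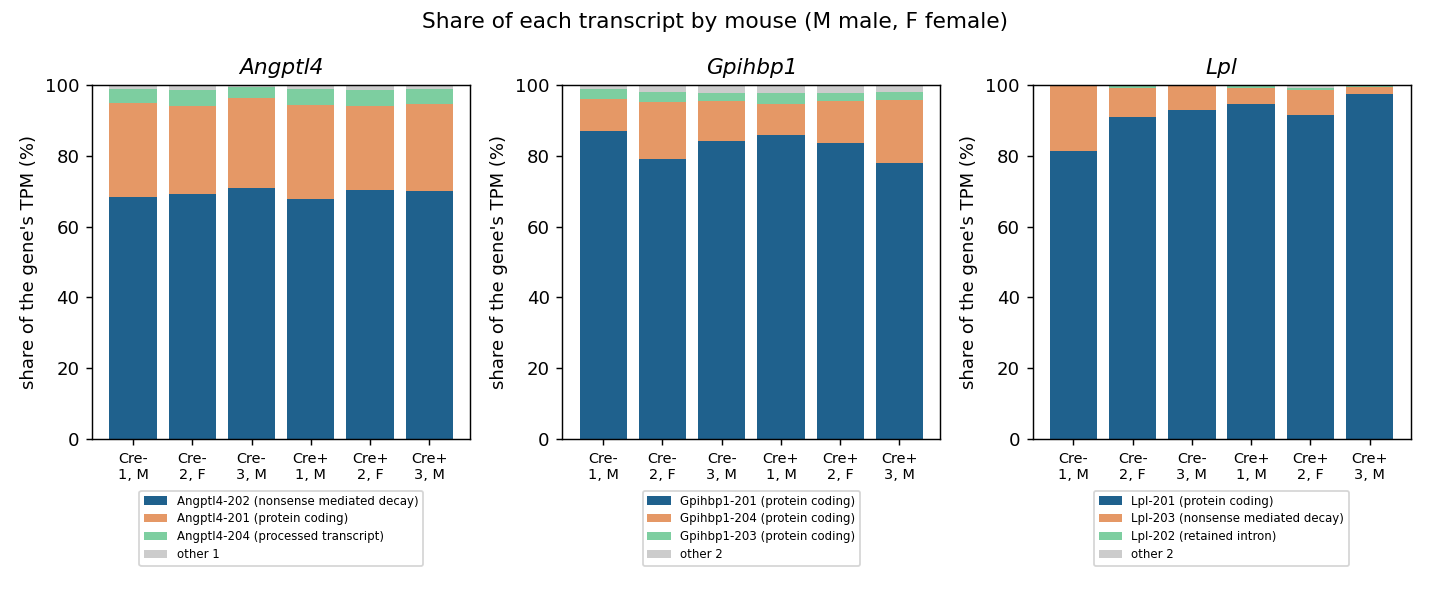
Share of each gene's TPM (vertical axis, percent) assigned to its 3 most abundant transcripts and to the others, in each mouse, for Angptl4, Gpihbp1 and Lpl. Angptl4-202 holds 67.8% to 71.0% in every mouse, and the share of Lpl-203 is lower in the 3 Alb-Cre+ mice (2.07% to 7.02%) than in the 3 Alb-Cre- mice (7.13% to 18.6%).

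Ratios within a mouse set the lipase against its carrier and the fasting inhibitor against the feeding inhibitor. The log2 ratio of *Lpl* to *Gpihbp1* was -2.82, -1.88 and -2.55 in *Alb-Cre+* and -2.20, -2.20 and -2.08 in *Alb-Cre-* mice. The controls were nearly equal and the *Alb-Cre+* mice lay on either side of them, with the males below and the female above (exact two-sided permutation p = 0.4, adjusted over 2 ratios 0.4). The log2 ratio of *Angptl4* to *Angptl8* was 2.35, 1.66 and 1.36 in *Alb-Cre+* and 2.20, 0.46 and 0.76 in *Alb-Cre-* mice. It was higher in the *Alb-Cre+* mouse of each pair, with means of 1.79 ± 0.506 and 1.14 ± 0.932 (SD, n = 3 each, exact permutation p = 0.3, adjusted 0.4).

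For several of the genes the difference estimated between the sexes was larger than that between genotypes. This comparison was added after the values were seen, with genotype in the model. *Lpl* averaged 15.6 TPM in the 2 females and 7.96 TPM in the 4 males, a log2 difference of 1.00 (SE 0.23, limma adjusted p = 0.0529). *Gpihbp1* averaged 63.7 and 41.3 TPM, a difference of 0.63 (SE 0.13, adjusted p = 0.0400). *Angptl4* averaged 156 and 114 TPM (0.48, SE 0.14, adjusted p = 0.0812) and *Angptl8* 78.2 and 37.6 TPM (1.09, SE 0.44, adjusted p = 0.167). *Lmf1* had the opposite sign, with 14.8 TPM in females and 18.3 TPM in males (-0.30, SE 0.12, adjusted p = 0.157). Under the threshold of 0.01 none of the 6 was called, as against 73 genes in all (0.514%), and under 0.05 *Gpihbp1* was called, with 7.18% of all genes. These calls rested on both females. Without the *Alb-Cre+* female 3 genes passed 0.01 and 16 passed 0.05, in place of 73 and 1019, and without the control female 3 and 15 did. *Gpihbp1* then had an adjusted p of 0.312 and 0.141 (limma). The *Lpl* difference was 0.51 without the *Alb-Cre+* female and 1.49 without the control female, and that of *Angptl8* 1.67 and 0.50. *Angptl4* gave 0.66 and 0.31 in these fits, and *Lmf1* -0.31 and -0.29.

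Both females were above all 4 males for *Lpl*, *Angptl4* and *Gpihbp1*, a pattern of 36.6% of all genes, and below them for *Lmf1*, a pattern of 5%. After rescaling by median of ratios the female minus male difference was 0.71 for *Lpl* (limma adjusted p = 0.0786) and 0.35 for *Gpihbp1* (adjusted p = 0.0882). On that scale *Angptl4* differed by 0.20 (adjusted p = 0.493) and *Lmf1* by -0.59 (adjusted p = 0.0392). The 6 stellate cell markers also summed higher in females, at 237 to 249 TPM against 89.5 to 183 TPM in males. The part of endothelial, Kupffer or stellate cells in the sex differences was not tested.

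**Figure D4:**
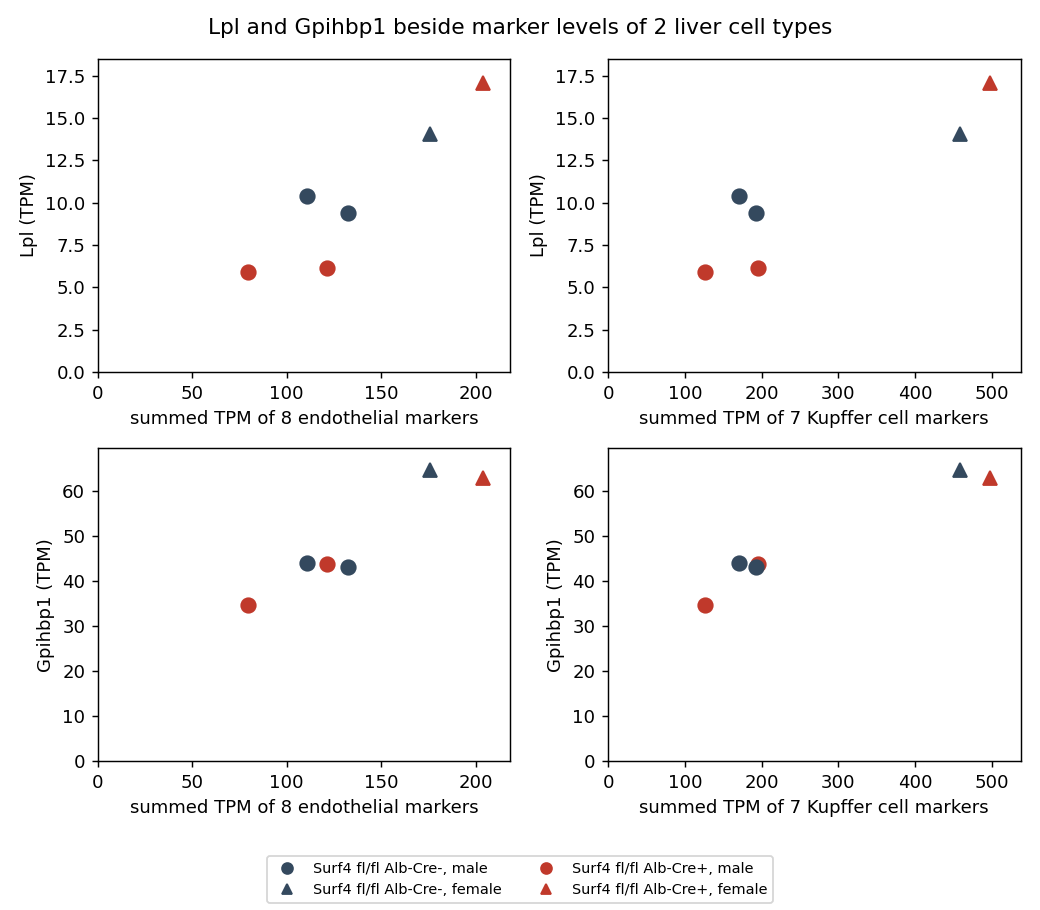
Lpl (upper panels) and Gpihbp1 (lower panels) in TPM against the summed TPM of 8 endothelial markers (left) and 7 Kupffer cell markers (right) in the 6 mice, all axes from 0. The 2 females (triangles) lie at the upper right of each panel, and the Alb-Cre+ males (red circles, 5.91 and 6.17 TPM of Lpl) lie below the Alb-Cre- males (9.37 and 10.4 TPM).

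The genotype difference had opposite signs in the female pair and in both male pairs for *Lpl* and *Angptl8*, as it did for 32.9% of all genes. A genotype by sex term gave 0.98 for *Lpl* (SE 0.24, unadjusted p = 0.0123, adjusted p = 0.775) and -1.17 for *Angptl8* (SE 0.92, unadjusted p = 0.267, adjusted p = 0.793, both limma). That term reached an unadjusted p under 0.05 in 6.08% of all genes and an adjusted p under 0.01 in 0%. Each of these differences rests on a single pair of females.

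The proteins that meet LPL on lipoproteins were read next, from lists compiled by known function. These lists and those below were chosen with earlier results of these data known. Their counts beside the share of all genes are therefore descriptions and carry no test. Of 5 apolipoproteins that act on LPL, 4 were lower in the *Alb-Cre+* mouse of every pair (12.4% of all genes were), and the median log2 difference of the list was -0.31 against -0.0017 over all genes. *Apoc2*, the activator of LPL, was at 596, 473 and 221 TPM in *Alb-Cre+* and at 992, 758 and 699 TPM in *Alb-Cre-* mice. The genotypes did not overlap, and the log2 difference was -1.02 (SE 0.36, unadjusted p = 0.0250, adjusted p = 1.00, limma). *Apoa5*, which aids LPL, differed by -0.41 (SE 0.28), *Apoc1* by -0.31 (SE 0.21) and *Apoe*, the ligand by which remnants are taken up, by -0.20 (SE 0.29). *Apoc3*, an inhibitor of LPL, differed by 0.01 (SE 0.20). None of the 5 was called. With the replicate block *Apoa5* and *Apoc1* had an unadjusted p of 0.0435 and 0.0496 and an adjusted p of 0.999 (limma).

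Among other lipases, *Lipa*, the acid lipase of the lysosome, was at 60.7, 75.7 and 43.7 TPM in *Alb-Cre+* and at 105, 118 and 81.2 TPM in *Alb-Cre-* mice, again without overlap. Its log2 difference was -0.77 (SE 0.23, unadjusted p = 0.0125, adjusted p = 1.00, limma). *Lipc*, hepatic lipase, differed by 0.01 (SE 0.21) and *Lipg*, endothelial lipase, by -0.11 (SE 0.50). Of the other angiopoietin-like genes read, *Angptl2* was at 2.01 to 3.63 TPM and differed by -0.14 (SE 0.31), and *Angptl7*, at 0.091 to 0.864 TPM, by -0.28 (SE 0.67). *Angptl1* fell under the minimum of 0.1 TPM and was not tested.

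Of 10 genes that process LPL or meet it at the cell surface, 9 had a log2 difference above 0 and 1 below, with a median of 0.13. Of all genes tested 7044 were above 0 and 7145 below, the background for this count and for those of the lists below. *Syvn1*, a ubiquitin ligase of the endoplasmic reticulum, was the highest at 0.34 (SE 0.22). *Sdc4*, a heparan sulfate proteoglycan, was the lowest at -0.62 (SE 0.17, limma unadjusted p = 0.0084, adjusted p = 1.00), with 353, 259 and 268 TPM in *Alb-Cre+* and 384, 497 and 462 TPM in *Alb-Cre-* mice. Of 9 receptors and proteoglycans of remnant and fatty acid uptake, 5 were above 0 and 4 below, with a median of 0.08. They ran from *Scarb1*, a receptor for high density lipoprotein (-0.42, SE 0.13), to *Lrp1*, a remnant receptor (0.23, SE 0.21). At an unadjusted p under 0.05 each of the lists of apolipoproteins, lipases, processing genes and receptors held 1 gene that was lower in *Alb-Cre+* mice, namely *Apoc2*, *Lipa*, *Sdc4* and *Scarb1*, against 0.958% of all genes.

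Genes of the programmes that are known to act on the inhibitors were read beside them. Of 16 PPARA-responsive genes, the programme of fasting to which *Angptl4* responds, 12 were above 0 and 4 below, with a median of 0.24 against 0.50 for *Angptl4*. In 5 the *Alb-Cre+* mouse was the higher of every pair (11.5% of all genes) and in 3 the lower (12.4%). *Pdk4*, which turns off the use of pyruvate, was the highest at 0.73 (SE 1.06), and *Fgf21*, a fasting hormone, the lowest at -2.05 (SE 0.88). *Fgf21* was at 4.52, 16.9 and 2.57 TPM in *Alb-Cre+* and at 22.7, 70.4 and 9.19 TPM in *Alb-Cre-* mice, lower in each pair though the genotypes overlapped. Within pairs it differed by -2.31, -2.06 and -1.80. The replicate block lowered its SE from 0.88 to 0.14 and its unadjusted p from 0.0518 to 1.6e-05, with an adjusted p of 0.0580, the smallest of any gene in that limma fit and still short of 0.01. *Plin2*, a coat protein of lipid droplets named after its value was seen, had an unadjusted p of 0.0488 and an adjusted p of 0.999 in that fit (0.54 on the log2 scale). *Cpt1a*, which admits fatty acids to mitochondria, was at 158, 179 and 130 TPM in *Alb-Cre+* and at 273, 270 and 187 TPM in *Alb-Cre-* mice. It was the PPARA-responsive gene with an unadjusted p under 0.05 (-0.63, SE 0.20, unadjusted p = 0.0139, adjusted p = 1.00, limma), and was named after its value was seen. The members of this list thus lay on both sides of 0, as did the inhibitors.

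Of 16 genes that respond to insulin, LXR, SREBP1c or ChREBP, factors of the fed liver that also act on *Angptl8*, 12 were above 0 and 4 below, with a median of 0.20 against -0.15 for *Angptl8*. In 7 the *Alb-Cre+* mouse was the higher of every pair (11.5% of all genes). At an unadjusted p under 0.05, 5 were higher in *Alb-Cre+* mice (0.803% of all genes were) and none lower, and none passed the adjusted p. These 5, of which all but *Thrsp* were named after their values were seen, were *Thrsp*, *Fasn*, *Pklr*, *Tkfc* and *Khk*, genes of fatty acid synthesis, glycolysis and fructose use. *Thrsp*, a lipogenic protein, was at 87.0, 31.1 and 86.2 TPM in *Alb-Cre+* and at 15.1, 19.7 and 15.4 TPM in *Alb-Cre-* mice (1.88, SE 0.40, adjusted p = 1.00, limma). *Fasn*, fatty acid synthase, differed by 1.34 (SE 0.33) and *Tkfc*, a kinase of fructose use, by 0.99 (SE 0.18). *Abcg8*, a sterol exporter, was the lowest of the list at -0.33 (SE 0.27).

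Of 10 genes of fasting and glucocorticoid action, 3 were above 0 and 7 below, with a median of -0.30. They ran from *Ppargc1a*, a coactivator of gluconeogenesis (-1.08, SE 0.53), to *Irs2*, an adaptor of the insulin receptor (0.32, SE 0.88). None had an unadjusted p under 0.05. In the blocked fit *Igfbp1*, named after its value was seen, had an unadjusted p of 0.0198 (-0.85, adjusted p = 0.914, limma), as in the list before it *Mlxipl* had 0.0296 (0.48, adjusted p = 0.997).

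**Figure D5:**
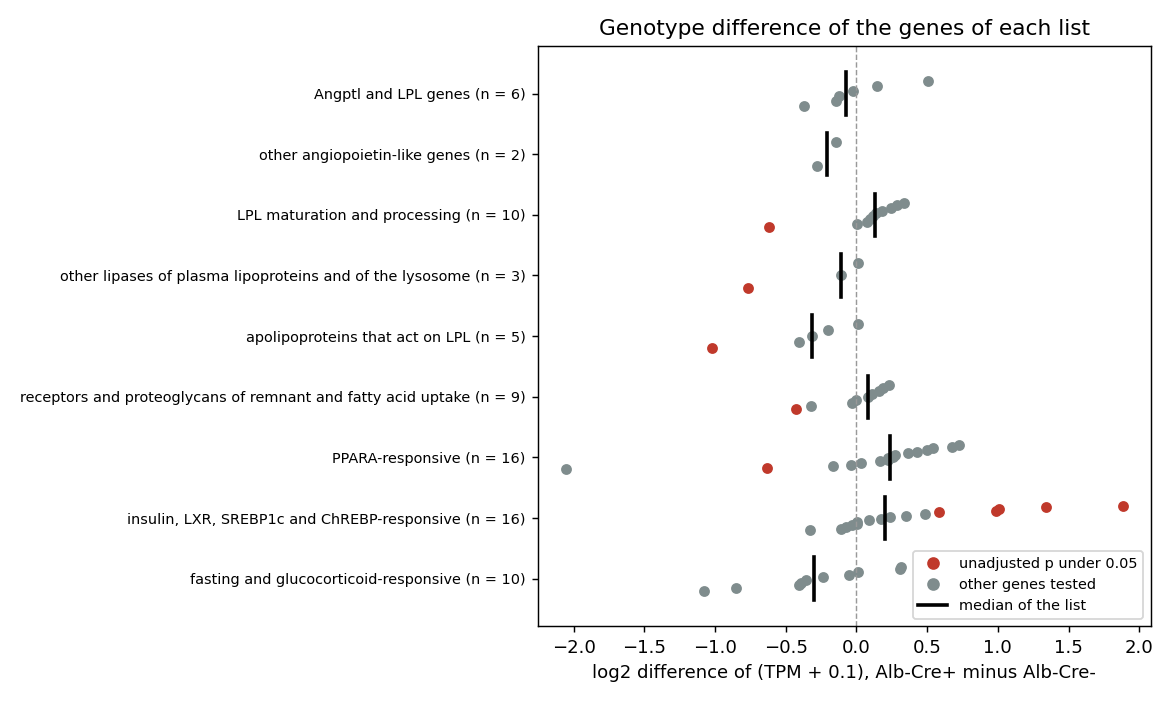
Difference between genotypes on the log2(TPM + 0.1) scale, Alb-Cre+ minus Alb-Cre- (horizontal axis), for each tested gene of each list, spread vertically to be seen, with red for an unadjusted p under 0.05 and a black bar for the median. The apolipoproteins lie mostly below 0 with a median of -0.31, and the PPARA-responsive genes mostly above it with a median of 0.24, but no gene passed the adjusted p of 0.01.

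The genes whose levels ran most like each member over the 6 mice were found among 10278 genes of at least 1 TPM, by Pearson correlation of log2(TPM + 0.1). These are descriptions over 6 mice that share libraries, sex and replicate number, and carry no test. *Gpihbp1* ran closest to *Tmem167* (r = 0.998), *Ly6c2* and *Hmgn1* (0.997 each), and 500 genes had an r of 0.95 or more with it. *Lpl* ran closest to *Med22* (0.997), *Ube2g1* and *Parp16* (0.995 each), with 194 such genes. For the others the number was 17 to 41. *Angptl4* ran closest to *Hoxa5* (0.993), *Rnps1* (0.990) and *Phf21a* (0.980), and *Angptl8* to *Wbp1l* (0.994), *Zfp960* (0.991) and *Zfp91* (0.979). *Angptl6* ran closest to *Smyd4* (0.986), *Cyp2c37* (0.985) and *Ramp1* (0.984), and *Lmf1* to *Scnn1a*, *Nfix* (0.988 each) and *Eif4ebp3* (0.987). No member was among the 3 nearest genes of another, a ranking by the highest r. Between members r was 0.90 for *Lpl* and *Gpihbp1*, -0.87 for *Lmf1* and *Lpl*, and -0.85 for *Lmf1* and *Gpihbp1*. It was -0.81 for *Lmf1* and *Angptl8*, and -0.20 to 0.54 for the other pairs of members.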

How the data were processed

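Liver RNA from 6 mice was sequenced, 1 library per mouse. The authors deposited TPM per transcript and mouse, in a table named as Salmon output; the study's methods describe STAR alignment to GRCm38 and RSEM, and the submitters' processing notes name STAR, RSEM, Salmon and DESeq2. The same record holds a table of the authors' own DESeq2 comparison (log2 fold changes, p-values), which was not used. TPM give no read numbers, so the depth and counting error of each value cannot be given.

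TPM of 116748 transcripts were summed by gene symbol, and 163 with no symbol were left out. Genes averaging 0.1 TPM or more entered a limma 3.58.1 fit of log2(TPM + 0.1) (in R 4.3.3, with empirical Bayes with trend, genotype alone, two-sided, Benjamini-Hochberg over all genes, threshold 0.01); a fold change on this scale understates that of low genes. A limma fit took the place of the study's count test. It was also run on simulated data with independent noise in each mouse. Those data lack the sex and replicate structure of these libraries, so that run does not vouch for the fit here. Shares and ratios were compared by exact permutation. P-values measure the spread between these mice. Transcripts were matched by identifier to GENCODE M21 (GRCm38); all 26 of the 6 genes were found, each under another version number, so structures and sequences are those of M21. RefSeq promoter sequences of 3 of the 6 genes were at hand and were not used.

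The genes and lists were chosen with earlier results of these data known. Named are the 6 genes, *Surf4*, in each list the genes with the highest and lowest log2 fold change among those of at least 1 TPM (all genes of lists of up to 5) and any past the threshold, the 3 genes most like each member (no Gm, Rik or mitochondrial symbols), and markers at 0 or set beside a result. The labels give the same replicate numbers to both genotypes, and same-numbered mice share their sex. Deviations from the genotype means correlated across genes at 0.37, 0.59 and 0.37 between mice of the same number and at 0.17 or less otherwise, so the numbers were taken to pair the mice. The labels do not say whether same-numbered mice are littermates or were handled together. The block was thus chosen from the values it was fitted to, and the value of 0.59 is that of the female pair. Alternatives were a replicate block, sex as a covariate, another pseudocount and minimum, median of ratios scaling, no trend, the most abundant transcript alone, an adjusted p of 0.05, and each mouse left out. The sex comparison, males alone and the block with median of ratios were added after the data were seen. The genotype by sex term and the tests of transcript shares were not planned either.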

Additional observations from a re-analysis of the deposited data

Results flagged for a closer look

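*Lpl* and *Angptl8* were flagged because the genotype difference in the female pair had the opposite sign to that in both male pairs. The same pattern was shown by 32.9% of all genes, so it does not set these genes apart. For *Lpl* the *Alb-Cre+* female was higher than its control and both *Alb-Cre+* males were lower, a female minus male gap of 0.98 on the log2 scale (genotype by sex term, limma unadjusted p = 0.0123, adjusted p = 0.775). For *Angptl8* the *Alb-Cre+* female was lower and both males were higher, a gap of -1.17 (unadjusted p = 0.267, adjusted p = 0.793). Neither passed the threshold after adjustment, and sex cannot be told apart from replicate number 2.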

How the results depend on the processing

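Of 96 refits of the 6 genes (16 each), 87 kept the sign and stayed short of the threshold, and 9 changed sign, 7 when a mouse was left out and 2 in males alone (*Angptl6* 0.15, *Angptl8* 0.24). Over the 6 fits that leave out a mouse, the log2 difference ran from -0.36 to 0.18 for *Angptl6*, -0.71 to 0.41 for *Angptl8* and -0.35 to 0.076 for *Gpihbp1*, and from 0.32 to 0.72 for *Angptl4*, 0.04 to 0.24 for *Lmf1* and -0.87 to -0.11 for *Lpl*. *Angptl8* was 0.41 without the control female, and *Lpl* was -0.87 without the *Alb-Cre+* female. Leaving out a mouse also moved the median of all genes, to -0.12 without the *Alb-Cre+* female and 0.11 without *Alb-Cre+* replicate 3. Genes past the adjusted p of 0.01 numbered 0 to 1 over these refits, 1 without *Alb-Cre+* replicate 1, and 0 under the other alternatives. The replicate block raised the genes at an unadjusted p under 0.05 from 250 to 666 (775 with median of ratios, 522 in males alone, 531 with sex as a covariate) and, beside *Angptl4*, changed no other call of the 6 genes. *Lpl* was called at that p in males alone and without the *Alb-Cre+* female. The 6 female minus male differences kept their sign in 12 refits each, but rested on both females: without either, genes past an adjusted p of 0.05 numbered 15 or 16 in place of 1019. The adjusted p of *Gpihbp1* ran from 0.0333 to 0.312. Unknown depth and 3 mice per genotype limit what could be detected. The cause of each change was not tested.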
